A study of Mus musculus with 8 samples.

Results

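The 84 genes described here encode the proteins of the cytosolic ribosome. They were chosen by gene symbol alone, as every listed gene whose symbol is Rpl or Rps with a number and at most a short ending such as a, x, y, l or l1, or is Rplp0, Rplp1, Rplp2 or Rpsa, with pseudogene symbols left out, and they are 84 of the 24849 genes in the deposited FPKM tables, where FPKM counts fragments relative to transcript length and to the fragments mapped in the sample. No measured value entered that rule. By symbol, 31 belong to the small subunit, 43 to the large subunit and 3 to the P stalk, and 7 are paralogs, second genes for a ribosomal protein that has a more widely used parent gene. Polyadenylated RNA was sequenced from wild-type (WT) and Pcgf5-/- mouse embryonic stem cells (mESCs) of the MPI-II line, from strain 129S2/SvPas, at day 0 and at day 6 of neural differentiation, with 2 biological replicates in each of the 4 conditions. PCGF5 is a subunit of a noncanonical Polycomb repressive complex (PRC1), and the study asked whether neural differentiation needs it. Day 0 cells of both genotypes were kept on feeder cells with serum, leukemia inhibitory factor and the inhibitors CHIR99021 and PD0325901, and day 6 cells of both genotypes had been moved to N2B27 medium. The Pcgf5-/- cells came from TALEN cutting in the second exon, insertion of puromycin and neomycin cassettes and picking of single colonies, so a trait of the picked colony and the loss of Pcgf5 cannot be told apart.

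Each ribosome joins a small subunit, which reads the messenger RNA, to a large subunit, which forms the peptide bond, and most of its proteins are present in a single copy. The genes are scattered over the chromosomes but their transcripts are abundant in growing cells, and many of these transcripts begin with a C followed by a run of pyrimidines, the terminal oligopyrimidine (TOP) motif, through which the growth-control kinase mTOR and the RNA-binding protein LARP1 set their translation. A few subunits have paralogs that are used in particular tissues, such as Rpl10l in male germ cells and Rpl3l in striated muscle.

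The start of the transcript is shown for 7 genes because a TOP motif there is the feature that this family is best known to share, and they were chosen after their sequences were seen. RefSeq promoters (build GRCm38.p6, which is not the build of the expression files) were found by symbol for 63 of the 84 genes, with 75 start sites in all. Each line holds 15 bases before the annotated start and 15 bases from it onward, 5′ to 3′ on the gene's strand, and capitals mark matches to the letters CTTT or CTCTTT (the second of which contains the first), with a further C where one followed CTCTTT.
Rpl38, chr11:114668565-114668594, plus strand: agcggaagcctcgttCTTTccccgttctct
Rpl35, chr2:39005117-39005146, minus strand: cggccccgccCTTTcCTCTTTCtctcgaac
Rps6, chr4:86857353-86857382, minus strand: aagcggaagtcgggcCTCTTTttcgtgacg
Rplp2, chr7:141447636-141447665, plus strand: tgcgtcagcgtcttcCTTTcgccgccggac
Rps9, chr7:3704026-3704055, plus strand: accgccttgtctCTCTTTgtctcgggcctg
Rpl39l, chr16:10170213-10170242, plus strand: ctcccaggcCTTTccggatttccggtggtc
Rpl10l, chr12:66284387-66284416, minus strand: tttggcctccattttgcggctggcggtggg
In Rpl38, Rpl35, Rps6 and Rplp2 a match begins at the annotated start itself. In Rps9 and the paralog Rpl39l it begins before the start, and Rpl10l has no match in these 30 bases. Within 10 bases on either side of the start, 25.3% of the 75 start sites of the family held CTTT on either strand, against 14.8% of the 32851 start sites in the table, and on the gene's own strand the shares were 21.3% and 7.83%. From 250 bases before the start to 50 bases after it, the letters CCGGAAG, found in sites of ETS factors, stood on either strand in 36.0% of the family and in 8.86% of all promoters. The letters GCCATNTT, found in sites of the factor YY1, stood in 22.7% and 6.05%. TATAAA within the 50 bases before the start stood in 1.33% and 3.50%.

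The first 30 coding bases are shown for 3 pairs of parent and paralog, because reads from near-identical stretches can be placed on either gene. They are taken from the GENCODE M1 transcripts of build NCBIM37 (mm9, the build of the expression files), and capitals mark the bases that differ within a pair.
Rpl39: atgTcttctcacaagacTttcCgAatcaag
Rpl39l: atgGcttctcacaagacCttcAgGatcaag
Rpl10: atgggCcgCcgCccCgcCcgGtgttaccgg
Rpl10l: atgggTcgTcgTccGgcTcgCtgttaccgg
Rps4x: atggctcgtggtcccaagaaacacctgaag
Rps4l: atggctcgtggtcccaagaaacacctgaag
The stretch of Rps4x and Rps4l is the same in both genes. Over the aligned coding sequence the identity was 85.3% for Rpl39 and Rpl39l, with a longest shared run of 38 bases, 84.8% for Rpl10 and Rpl10l, with a run of 23 bases, and 79.8% for Rps4x and Rps4l, with a run of 35 bases. The other pairs were less alike, from 73.3% for Rpl3 and Rpl3l through 68.2% for Rpl22 and Rpl22l1 to 54.1% for Rpl7 and Rpl7l1.

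Relative sequencing depth was read from genes detected below 0.3 FPKM in both a sample and the first WT day 0 sample. It is the inverse of the most common ratio of the sample's FPKM to that of the first WT day 0 sample. Relative depth ran from 0.993 in Pcgf5-/- day 6 replicate 2 to 1.29 in WT day 6 replicate 1, and its part in the values below was not tested. Pcgf5 itself was at 5.18 and 3.63 FPKM in WT day 0, 9.16 and 5.06 in WT day 6, 1.28 and 1.84 in Pcgf5-/- day 0 and 0.669 and 0.457 in Pcgf5-/- day 6, so both knockout samples lay below both WT samples on each day. The summed level of 8 mESC markers (such as Pou5f1, Nanog and Esrrb) was 2019 to 2206 FPKM over all 4 day 0 samples, 259 to 450.0 in WT day 6 and 1049 to 1063 in Pcgf5-/- day 6. The summed level of 8 neural markers (such as Sox1, Pax6 and Nes) was 49.4 to 56.9 FPKM in WT day 0 and 62.9 to 82.1 in Pcgf5-/- day 0. On day 6 it was 431 to 528 in WT and 201 to 203 in Pcgf5-/- cells. The summed level of 8 fibroblast markers (such as Col1a1 and Thy1), which feeder cells express, was 220 to 284 FPKM in WT day 0. It was 180 to 685 in Pcgf5-/- day 0, 42.2 to 124 in WT day 6 and 24.8 to 28.4 in Pcgf5-/- day 6. These marker levels moved with day and, on day 6, with genotype. On day 0 the neural sum also differed between the genotypes without overlap, and the 2 Pcgf5-/- samples were far apart in the fibroblast sum. The part of these marker levels in the values below was not tested.

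Ribosomal protein transcripts were among the most abundant in every sample, and all 84 genes passed the filter of a mean above 1 FPKM in at least 1 condition. The highest mean FPKM over the 8 samples were those of Rps26, an mRNA-contacting protein of the small subunit (1743), Rpl41 (1701), Rpl35 (1499) and Rpl23a (1336), both of the rim of the large subunit's exit tunnel, and Rpl32 (1209). The lowest were those of Rpl3l (1.02), Rps27 (10.9), Rpl39l (19.3), Rpl10l (44.3) and Rps15a (58.0). The 3 P-stalk genes, which encode the arm that recruits elongation factors, had means of 494 (Rplp0, its base), 933 (Rplp1) and 778 (Rplp2). This order of levels is loose, since the authors removed identical reads, a step that acts most on short and abundant transcripts, and since the deposited FPKM lay above the upper bound of its own deposited 95% interval in 81.25% of the values of these genes, against 9.19% of the values of all 13214 genes tested. The ratio of the FPKM to the middle of that interval ran from 0.938 to 2.11 among the 84 genes, with a median of 1.26, but varied little between samples, with a median coefficient of variation of 0.75% over the samples.

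The 84 genes together held 15.2% ± 1.01 of the summed FPKM in WT day 0, 14.0% ± 0.65 in Pcgf5-/- day 0, 12.8% ± 0.23 in WT day 6 and 13.6% ± 1.46 in Pcgf5-/- day 6 (SD, n = 2 each). By sample, the shares were 14.5% and 15.9% in WT day 0, 14.4% and 13.5% in Pcgf5-/- day 0, 12.9% and 12.6% in WT day 6, and 12.5% and 14.6% in Pcgf5-/- day 6. Both WT day 6 shares lay below both WT day 0 shares, and the Pcgf5-/- shares of the 2 days overlapped. The genes moved together between replicates of a single condition. In Pcgf5-/- day 6, replicate 2 was above replicate 1 in 80 of 84 genes, with a median log2 difference of 0.31, while 53.3% of all genes tested were above. In WT day 0 replicate 2 was above in 78 of 84 genes, with a median of 0.17, in Pcgf5-/- day 0 in 13 of 84, with a median of -0.12, and in WT day 6 in 35 of 84, with a median of -0.01. With 2 samples per condition, the p-values below set a difference of means against the replicate spread. That spread is pooled over the 4 conditions and drawn toward a trend over all genes tested. The p-values treat each gene alone and take no account of such joint moves.

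**Figure D1:**
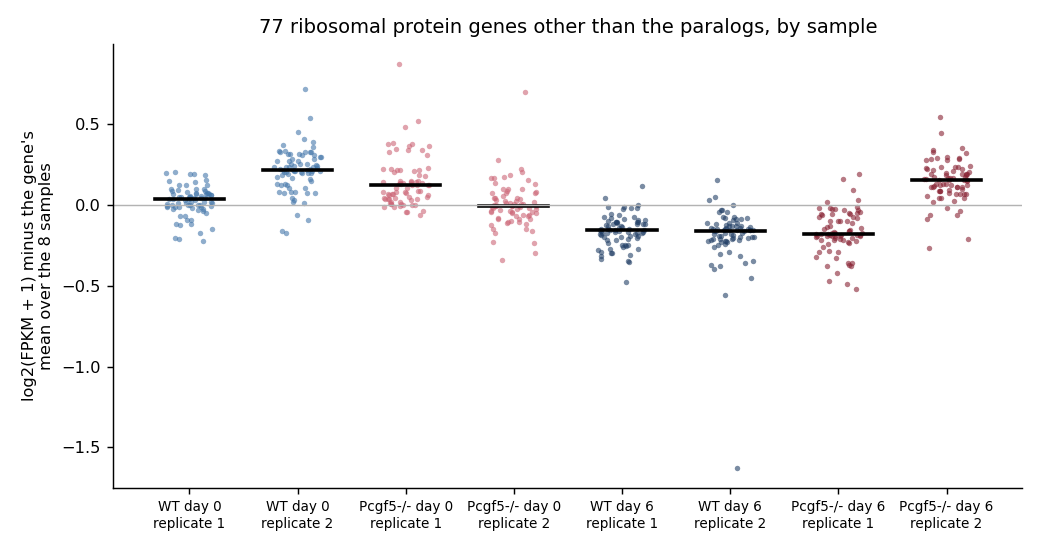
Each dot is 1 of the 77 genes other than the paralogs in 1 sample, drawn as its log2(FPKM + 1) minus its own mean over the 8 samples, and each black line is the median of the 77. The lines of both WT day 6 samples and of Pcgf5-/- day 6 replicate 1 lie below 0, and that of Pcgf5-/- day 6 replicate 2 lies above it.

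From day 0 to day 6 in WT cells, every one of the 84 genes had a log2 fold change of FPKM + 1 below 0, although 81 did with each sample rescaled to the same sum and 56 under quantile normalization. Their median was -0.28, against 0.22 for all genes tested. With that rescaling the medians were -0.23 and 0.29, and with the median of all other genes set equal -0.65 and -0.15. Under quantile normalization they were -0.037 and 0.0050, so the gap to the other genes shrank under the last. That method gives every sample the same value at each rank, so it can itself remove part of a joint shift of very abundant genes. In 76 of the 84 genes both day 6 samples lay below both day 0 samples, which held for 28.1% of all genes tested, and in 0 did both lie above, against 49.5%. Limma's adjusted p was under 0.05 for 11 genes with a lower level, 13.1% of the family against 16.2% of all genes tested, and for 0 genes with a higher level, against 34.2%. With 1 sample left out, the number lower ran from 5 (without WT day 6 replicate 2) to 27 (without Pcgf5-/- day 6 replicate 2). The 8 genes whose samples overlapped were Rpl22, Rpl23, Rpl34, Rpl38, Rps19, Rps27, Rps27a and Rps28. Less RNA per cell and fewer cells that hold it cannot be told apart in bulk RNA.

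Among the 77 genes other than the paralogs, these differences were close to each other, with quartiles of -0.35 and -0.23. The medians were -0.27 for the 31 small-subunit genes and -0.28 for the 43 large-subunit genes. Rps6, the small-subunit protein that S6 kinases phosphorylate, had 649.6 and 672 FPKM on day 0 and 551 and 554 on day 6, with no overlap and a log2 fold change of -0.26 ± 0.12 (SE, adjusted p = 0.116, limma). Rpsa, which sits at the outer face of the small subunit, had 472 and 576 and then 442 and 447, a log2 fold change of -0.23 (adjusted p = 0.215, limma). Rps6 lay near the median and Rpsa at the upper quartile. Like most of the family, both had samples that did not overlap and an adjusted p that missed the threshold. Of the P stalk, Rplp1 had 1019 and 1136 FPKM on day 0 and 766 and 767 on day 6, a log2 fold change of -0.49 (adjusted p = 0.0525, limma). Rplp0 and Rplp2 had log2 fold changes of -0.30 and -0.21. Rpl38, a large-subunit protein known from mouse mutants with skeletal patterning defects, lay at the other end, with 961 and 993 FPKM on day 0, 970.5 and 975 on day 6 and a log2 fold change of -0.01 (adjusted p = 0.974, limma), and under quantile normalization it was the 1 gene of the family called higher.

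Of the genes other than the paralogs, 6 fell in WT cells past the threshold. Rpl13a, a large-subunit protein that also acts in translational control of inflammatory mRNAs, had 606 and 806 FPKM on day 0 and 461 and 454 on day 6, and fell by 0.61 on the log2 scale (SE 0.16, adjusted p = 0.0149). Rps24, a small-subunit protein mutated in some families with Diamond-Blackfan anemia, had 899 and 934 and then 661 and 668 FPKM, a log2 fold change of -0.46 ± 0.14 (SE, adjusted p = 0.0220, limma). Rpl37 had 352 and 404 and then 272 and 287 FPKM, a log2 fold change of -0.43 ± 0.14 (SE, adjusted p = 0.0302, limma). None of these samples overlapped between the days. Rpl12, at the base of the P stalk, had 964 and 1193 and then 802 and 802 FPKM, with a log2 fold change of -0.42 ± 0.15 (SE, adjusted p = 0.0419, limma). Rps3a1 of the small subunit had 346 and 413 and then 297 and 289.6 FPKM, with a log2 fold change of -0.36 ± 0.13 (SE, adjusted p = 0.0480, limma). The last 2 calls are near the threshold, and they were kept in 10 and 9 of 19 other settings of the fit. The remaining gene, Rpl30, shares its locus with another symbol and is described with the shared loci.

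**Figure D2:**
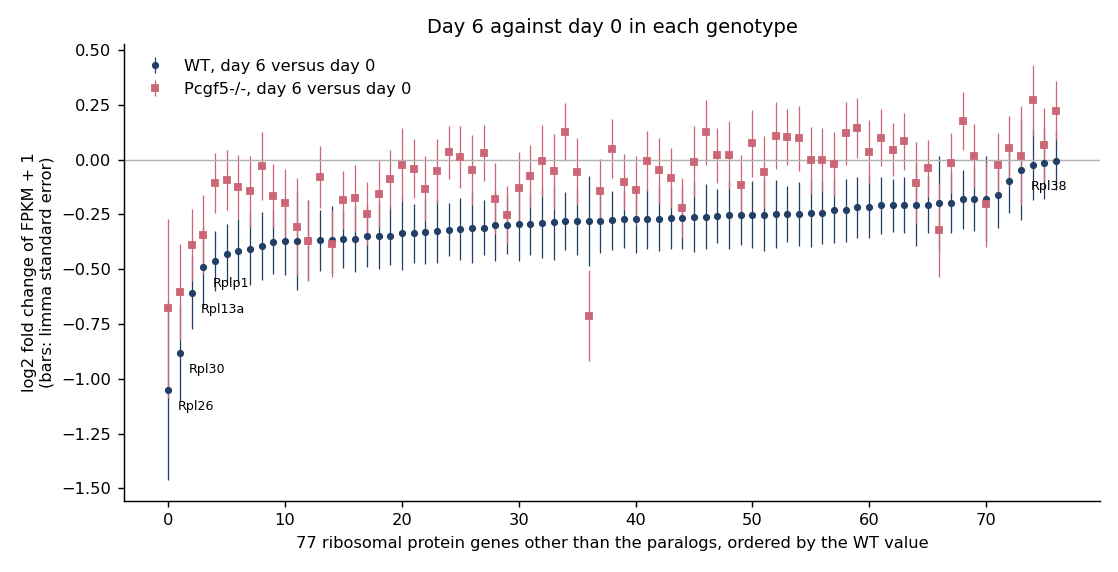
Log2 fold change of FPKM + 1 from day 0 to day 6 for the 77 genes other than the paralogs, ordered along the x axis by the WT value, with bars of 1 limma standard error. The WT points lie below 0 from Rpl26 at the left to Rpl38 at the right, while 25 of the Pcgf5-/- points lie above 0. Under quantile normalization the WT points would lie on both sides of 0.

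In Pcgf5-/- cells the direction of the change from day 0 to day 6 moved with the scaling and with the day 6 replicate. The median log2 fold change of the 84 genes was -0.06, against 0.13 for all genes tested, with 59 below 0 and 25 above. Under quantile normalization the medians were 0.012 and 0.025, with 40 of the 84 below 0, and with the median of all other genes set equal they were -0.24 and -0.055, with 82 below 0 and 10 called lower. Leaving out replicate 2 of Pcgf5-/- day 6 moved the median to -0.23, and leaving out replicate 1 moved it to 0.088. In 15 genes both day 6 samples lay below both day 0 samples (25.1% of all genes tested), and in 1 both lay above (43.3% of all genes tested). Limma called 4 genes lower, against 10.4% of all genes tested, and 0 higher, against 21.9%. The 4 were the paralogs Rpl10l, Rpl39l and Rpl22l1, and Rpl34, which shares its locus with another symbol. Rps6 had 637 and 620.1 FPKM on day 0 and 577 and 704 on day 6, a log2 fold change of 0.02 (adjusted p = 0.916, limma), and its samples overlapped.

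The paralogs had the widest changes of the family. Rpl10l, a copy on chromosome 12 of the X-linked Rpl10, had 81.6 and 138 FPKM in WT day 0 and 56.1 and 62.9 in Pcgf5-/- day 0. On day 6 it had 3.13 and 1.30 FPKM in WT and 6.39 and 5.19 in Pcgf5-/- cells. The conditions did not overlap, and their order was WT day 0, Pcgf5-/- day 0, Pcgf5-/- day 6 and WT day 6. From day 0 to day 6 Rpl10l fell by 5.12 on the log2 scale in WT (SE 0.31, adjusted p = 1.47e-05) and by 3.16 in Pcgf5-/- cells (SE 0.31, adjusted p = 0.000389). The difference between these 2 changes was 1.96 ± 0.44 (SE) on the log2 scale, with a limma adjusted p of 0.0545, just short of the threshold. Its parent Rpl10, which completes the large subunit near the peptidyl transferase centre, stayed between 616 and 852 FPKM in all 8 samples. Rpl10l therefore made up 11.8% ± 2.98 of the pair's summed FPKM in WT day 0, 7.35% ± 0.690 in Pcgf5-/- day 0, 0.327% ± 0.189 in WT day 6 and 0.845% ± 0.258 in Pcgf5-/- day 6 (SD, n = 2 each).

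Rpl39l, a paralog of the exit-tunnel protein gene Rpl39, had 25.1 and 86.3 FPKM in WT day 0 and 15.8 and 22.3 in Pcgf5-/- day 0, with the 2 WT samples far from each other. On day 6 it had 0.742 and 0.369 FPKM in WT and 1.82 and 1.72 in Pcgf5-/- cells. The conditions stood in the same order as those of Rpl10l. The log2 fold change from day 0 to day 6 was -4.95 ± 0.48 (SE, adjusted p = 0.000111, limma) in WT and -2.83 ± 0.48 (SE, adjusted p = 0.00372, limma) in Pcgf5-/- cells, and the difference between them was 2.11 ± 0.68 (SE, adjusted p = 0.117, limma). Rpl39 ran from 280.4 to 508 FPKM over the 8 samples. Rpl39l made up 5.36% and 15.1% of the pair in the WT day 0 samples and 3.01% and 6.12% in the Pcgf5-/- day 0 samples, and at most 0.645% in any day 6 sample. Reads that lie within the runs of bases shared with Rpl39 or Rpl10 can be placed on either gene, so the levels of Rpl39l and Rpl10l are uncertain to that extent.

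Rps4l, an intronless gene at chr6:148303178-148304118 (mm9) inside an intron of Tmtc1 on the other strand, is a paralog of the X-linked small-subunit gene Rps4x and had the highest mean level of the 7 paralogs. It had 325 and 342 FPKM in WT day 0 and 148 and 107 in WT day 6, against 427 and 487 in Pcgf5-/- day 0 and 378 and 379 in Pcgf5-/- day 6. Both knockout samples lay above both WT samples on each day, and the WT day 6 samples stood apart below all others. It fell in WT cells, with a log2 fold change of -1.40 ± 0.16 (SE, adjusted p = 0.000243, limma), while in Pcgf5-/- cells the change was -0.27 ± 0.16 (SE, adjusted p = 0.233, limma). The 2 changes differed by 1.14 ± 0.23 (SE, adjusted p = 0.0435, limma), the only interaction call in the family, where 1.34% of all genes tested had an interaction call upward and 1.75% downward. That call was kept in 6 of 18 other settings, and of the 8 fits with 1 sample left out it was kept in 1, that without WT day 6 replicate 1. Rps4x ran from 720.1 to 899 FPKM in the 8 samples, and the share of Rps4l in the pair was 27.7% ± 0.165 in WT day 0, 14.2% ± 1.99 in WT day 6, 36.2% ± 3.62 in Pcgf5-/- day 0 and 32.3% ± 3.06 in Pcgf5-/- day 6 (SD, n = 2 each). No exon of Tmtc1 lies over Rps4l, and Tmtc1 was at 0.475 and 0.526 FPKM in WT day 0, 0.630 and 0.489 in Pcgf5-/- day 0, 0.783 and 0.492 in WT day 6 and 2.76 and 1.27 in Pcgf5-/- day 6.

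Rpl22l1, the paralog of Rpl22, was as abundant as its parent on day 0. It had 138 and 124 FPKM in WT day 0 and 159.7 and 99.1 in Pcgf5-/- day 0, and 74.7 and 88.7 in WT day 6 and 55.5 and 82.7 in Pcgf5-/- day 6. The samples of the 2 days did not overlap in either genotype, and the genotypes overlapped on each day. It fell in Pcgf5-/- cells, with a log2 fold change of -0.88 ± 0.25 (SE, adjusted p = 0.0294, limma), and in WT the log2 fold change was -0.68 ± 0.25 (SE, adjusted p = 0.0523, limma). Rpl22 stayed between 98.2 and 152 FPKM. The share of Rpl22l1 in the pair was 50.7% ± 3.02 in WT day 0 and 39.5% ± 3.87 in WT day 6, and 52.7% ± 3.54 in Pcgf5-/- day 0 and 33.3% ± 2.75 in Pcgf5-/- day 6 (SD, n = 2 each).

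Rpl7l1 fell in WT cells from 82.5 and 90.3 to 61.4 and 57.2 FPKM, a log2 fold change of -0.54 ± 0.11 (SE, adjusted p = 0.00499, limma). In Pcgf5-/- cells it went from 84.0 and 87.3 to 77.6 and 71.8 FPKM, a log2 fold change of -0.20 (adjusted p = 0.218, limma). Its days did not overlap in either genotype. Rpl3l, known from striated muscle, was near the filter limit, with 1.68 and 1.58 FPKM in WT day 0 and 0.174 and 0.202 in WT day 6, a log2 fold change of -1.15 ± 0.19 (SE, adjusted p = 0.00153, limma) on a scale that understates the change of so low a gene. In Pcgf5-/- cells it had 1.55 and 1.39 and then 0.560 and 1.05 FPKM, a log2 fold change of -0.47 (adjusted p = 0.0926, limma). Rps27l, a paralog induced by p53, ran from 214 to 321 FPKM, with log2 fold changes of -0.34 (adjusted p = 0.135, limma) in WT and -0.15 (adjusted p = 0.546, limma) in Pcgf5-/- cells. In all, limma called 5 of the 7 paralogs lower in WT cells and 3 of 7 in Pcgf5-/- cells. It called 16.2% and 10.4% of all genes tested lower. All 7 paralogs had a log2 fold change below 0 in both genotypes.

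**Figure D3:**
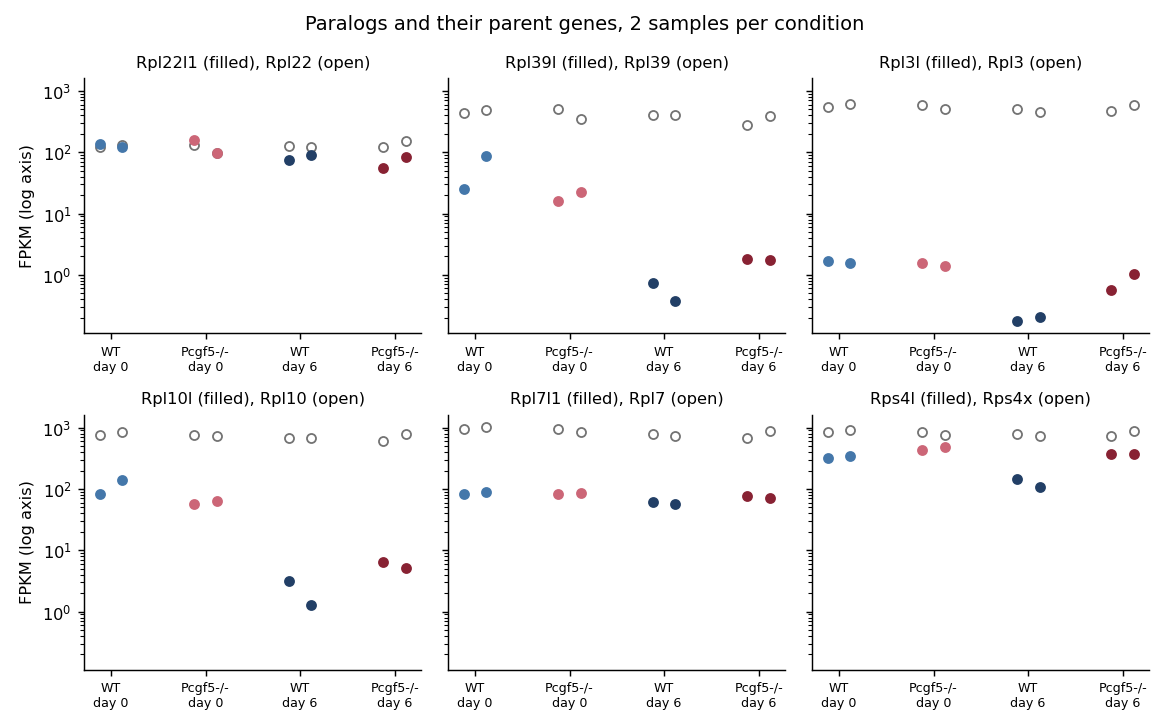
FPKM on a log axis of 6 paralogs (filled) and their parent genes (open) in the 2 samples of each condition. Rpl10l, Rpl39l and Rpl3l reach their lowest values in WT day 6, Rps4l is lowest in WT day 6 and near its day 0 level in Pcgf5-/- day 6, and the open points stay within a narrow band.

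On day 0 no gene of the family passed the test between Pcgf5-/- and WT cells, where limma called 0.288% of all genes tested higher and 0.0454% lower. Of the 84 genes 4 had an unadjusted p under 0.05 (limma), as had 2294 of the 13214 genes tested, a larger share. The median log2 fold change was -0.10, against 0.11 for all genes tested, and 67 of the 84 genes lay below 0, and the median stayed below 0 under each scaling tried but came to 0.00 without replicate 2 of WT day 0. Both knockout samples lay below both WT samples in 18 genes, 21.4% of the family against 13.3% of all genes tested. They lay above in 10 genes, 11.9% of the family against 34.6%. These 10 were all 9 of the genes on chromosomes 6 and 11 (Rpl32 and Rps4l on 6, Rpl19, Rpl23, Rpl23a, Rpl26, Rpl27, Rpl38 and Rps27a on 11) and Rpl13 on chromosome 8, the only 1 of the 75 genes elsewhere. Rpl23a had 1231 and 1332 FPKM in WT and 1695 and 1480.5 in Pcgf5-/- cells, a log2 fold change of 0.31 (adjusted p = 0.333, limma). Rpl32 had 1057 and 1251 and 1515 and 1338 FPKM, a log2 fold change of 0.31 (adjusted p = 0.356, limma).

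The genes on those chromosomes were compared with their neighbours, since other genes there were also higher in the knockout. On day 0 the median log2 fold change of the 1079 other genes tested on chromosome 11 was 0.48, and 75.3% of them had both knockout samples above both WT samples. The values were 0.41 and 67.9% for the 641 other genes on chromosome 6, and 0.08 and 29.0% for the 11410 on the remaining chromosomes. The 7 ribosomal protein genes of chromosome 11 had a median of 0.29, a difference of -0.19 from their neighbours. The 75 genes outside chromosomes 6 and 11 had a median of -0.10, a difference of -0.18 from theirs. Why genes of chromosomes 6 and 11 differed between the genotypes was not tested.

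**Figure D4:**
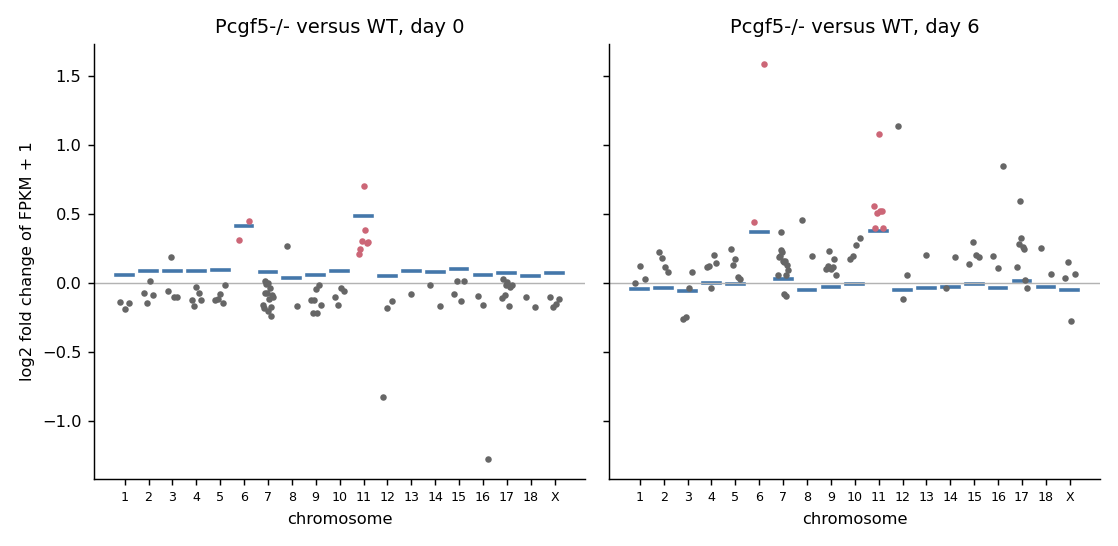
Log2 fold change of FPKM + 1 between Pcgf5-/- and WT cells for each of the 84 genes, by chromosome, on day 0 (left) and day 6 (right), with the members on chromosomes 6 and 11 in red and the median of the other genes tested on each chromosome as a blue line. On day 0 the 9 red points and the blue lines of those chromosomes lie above 0, and on day 6 most grey points lie above their lines, although under quantile normalization the day 6 median of the family was -0.011.

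On day 6, 74 of the 84 genes lay above 0 between Pcgf5-/- and WT cells, with a median of 0.16 against 0.02 for all genes tested, but under quantile normalization the median was -0.011 with 46 below 0. Leaving out replicate 2 of Pcgf5-/- day 6 brought the median to 0.015, and leaving out replicate 1 brought it to 0.32. Both knockout samples lay above both WT samples in 35 genes, 41.7% of the family against 33.4% of all genes tested, and below in 1, Rpl39, against 28.8%. Limma called 5 genes higher, 5.95% of the family against 9.57% of all genes tested, and 0 lower, against 7.05%. Of the 5, 4 lie on chromosomes 6 and 11, where limma called 25.2% of the other genes tested higher, and the other was Rpl10l, on chromosome 12. Outside chromosomes 6 and 11 it called 7.25% of the other genes higher. With any 1 of the 8 samples left out, 1 to 3 genes were called. At day 6 the 9 members on those chromosomes had a median of 0.52, and the 75 elsewhere had 0.14. The medians of the other genes tested were 0.37 on chromosome 6, 0.37 on chromosome 11 and -0.02 elsewhere, so the ribosomal protein genes lay 0.15 above their neighbours on chromosome 11 and 0.16 above them outside both chromosomes.

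Rps4l was the most changed, with 148 and 107 FPKM in WT and 378 and 379 in Pcgf5-/- day 6 and a log2 fold change of 1.59 ± 0.16 (SE, adjusted p = 0.00377, limma), a call kept in all 19 other settings. Rpl10l had 3.13 and 1.30 and 6.39 and 5.19 FPKM, a log2 fold change of 1.13 ± 0.31 (SE, adjusted p = 0.0427, limma). The levels of both genes did not overlap between the genotypes. Rpl19, an intersubunit bridge protein, had 851 and 835 FPKM in WT and 1145 and 1339 in Pcgf5-/- day 6, a log2 fold change of 0.55 ± 0.13 (SE, adjusted p = 0.0237, limma). Rpl38 had 970.5 and 975 and 1279 and 1526 FPKM, a log2 fold change of 0.52 ± 0.13 (SE, adjusted p = 0.0349, limma), and on day 0 the same direction without a call (961 and 993 and 1292 and 1107 FPKM). Rpl27 had 352 and 346 and 446 and 564 FPKM, a log2 fold change of 0.52 ± 0.15 (SE, adjusted p = 0.0456, limma). These 3 genes lie on chromosome 11, and their calls were kept in 13 (Rpl19), 7 (Rpl38) and 6 (Rpl27) of 19 other settings. That of Rpl10l was kept in 9 of 19.

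Of 31 members listed for a known role, both knockout samples lay above both WT samples on day 6 in 8 and below in 1. These patterns held for 33.4% and 28.8% of all genes tested. In the remaining listed members the genotypes overlapped. Rps6 was among the 8, with 551 and 554 FPKM in WT and 577 and 704 in Pcgf5-/- cells and a log2 fold change of 0.21 (adjusted p = 0.293, limma). Rps19, the small-subunit gene most often mutated in Diamond-Blackfan anemia, had 476 and 439 FPKM in WT and 378 and 488 in Pcgf5-/- cells, a log2 fold change of -0.09 (adjusted p = 0.747, limma). Rpl5 had 322 and 279.7 and 305 and 353 FPKM, and Rpl11, its partner in binding the p53 regulator Mdm2, had 722 and 709 and 679 and 887, with log2 fold changes of 0.13 (adjusted p = 0.577, limma) and 0.12 (adjusted p = 0.643, limma). The genotypes overlapped in Rps19, Rpl5 and Rpl11. Over the family the genotype effect on day 6 minus that on day 0 had a median of 0.24, with 78 of 84 above 0, against -0.10 for all genes tested. Under quantile normalization it was 0.051 with 55 above 0, and without replicate 2 of Pcgf5-/- day 6 it was 0.071.

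For 4 genes the deposited tables list a second symbol over at least 90% of the same locus, so that fragments of 1 transcript can be split between the 2 symbols. At chr3:90016589-90017570 (mm9) Rps27, a zinc-finger protein of the small subunit, had a mean of 10.9 FPKM and the symbol Rps27rt 936 FPKM, so the gene's low rank comes with 1.16% of the locus sum. At chr11:68715068-68718036 Rpl26 had 134 FPKM and Gm15772 1098. The sum of the 2 was 1086 and 1186 FPKM in WT day 0, 1354 and 1296 in Pcgf5-/- day 0, 1039 and 949 in WT day 6 and 1307 and 1638 in Pcgf5-/- day 6. On each day the knockout sums lay above the WT sums, by 0.22 and 0.56 on the log2 scale, in the direction of the other genes of chromosome 11.

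At chr15:34370263-34373031 Rpl30, which had the largest fall among the 6 genes called in WT cells outside the paralogs, went from 163 and 268 FPKM on day 0 to 116 and 109.7 on day 6, a log2 fold change of -0.88 ± 0.22 (SE, adjusted p = 0.0106, limma). The second symbol there, Gm12191, went from 124 and 109 to 191 and 127 FPKM. The sums were 288 and 377 on day 0 and 308 and 237 on day 6, which overlapped, with a difference of -0.29 on the log2 scale, close to the family's median. At chr3:130429745-130433316 Rpl34 fell in Pcgf5-/- cells from 116 and 90.6 to 58.0 and 66.8 FPKM, a log2 fold change of -0.71 ± 0.21 (SE, adjusted p = 0.0318, limma). With Rpl34-ps1 added, the sums were 153 and 95.6 on day 0 and 93.6 and 107 on day 6, which overlapped, with a difference of -0.27. Without these 4 genes the WT day 6 calls were 10 instead of 11 and the Pcgf5-/- day 6 calls 3 instead of 4.

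**Figure D5:**
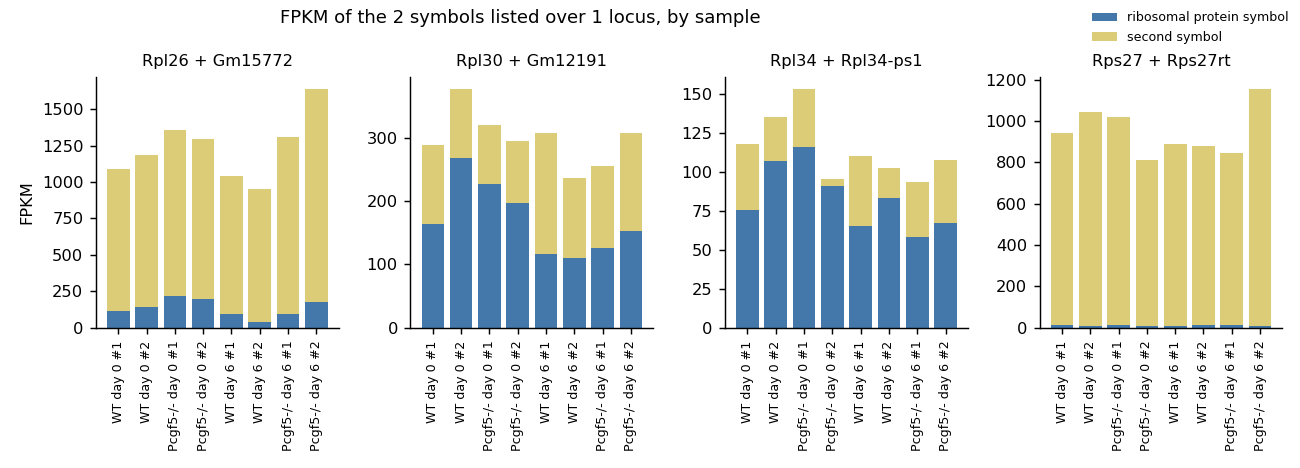
FPKM of the ribosomal protein symbol (blue) and of the second symbol listed over the same locus (yellow), stacked from 0, in each of the 8 samples, with #1 and #2 the replicates. The blue part of Rpl30 shrinks in the WT day 6 samples while the yellow part grows, so the stacked sums of the 2 days overlap.

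Other genes of the pathway were taken from lists set by function. Of 4 ribosomal proteins whose symbols do not follow the family's pattern (such as Fau and Gnb2l1), 1 fell in WT cells, Rpl36al, with a log2 fold change of -0.65 (adjusted p = 0.0162, limma), and none passed the test between the genotypes. Between the genotypes on day 6 all 4 had a log2 fold change above 0, with a median of 0.25. Gnb2l1, on chromosome 11, had 678 and 644 FPKM in WT and 805 and 937 in Pcgf5-/- cells on day 6, without overlap and with a log2 fold change of 0.39 (adjusted p = 0.0639, limma). Of 111 genes of ribosome biogenesis, 36 fell and 4 rose in WT cells, 32.4% and 3.6% of the list against 16.2% and 34.2% of all genes tested, with a median log2 fold change of -0.28. On day 6, 30 were higher and 0 lower in Pcgf5-/- than in WT cells, with a median of 0.35. The largest falls in WT cells were those of Rrn3, an initiation factor of RNA polymerase I (94.3 and 94.1 FPKM on day 0 and 56.5 and 46.7 on day 6, log2 fold change -0.86 (adjusted p = 0.00212, limma)), and of the helicase Ddx10 (-0.80 (adjusted p = 0.000752, limma)). The largest differences on day 6 were those of Ftsj3, an rRNA methyltransferase (76.3 and 66.8 FPKM in WT and 135 and 142 in Pcgf5-/- cells, log2 fold change 0.95 (adjusted p = 0.00564, limma)), and of the polymerase I subunit Polr1a (0.93 (adjusted p = 0.0132, limma)), on chromosomes 11 and 6. Of the 30, 17 were among the 21 list members on chromosomes 6 and 11, where 25.2% of all genes outside the ribosomal protein family were called higher. The remaining 13 were 14.4% of the 90 list members elsewhere, against 7.25% of all such genes there, with a median of 0.29 against -0.02.

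Of 77 mitochondrial ribosomal proteins, which build a separate ribosome, 14 fell and 7 rose in WT cells, 18.2% and 9.09% of the list, with a median of -0.06. On day 6, 15 were higher and 0 lower in Pcgf5-/- cells, with a median of 0.27. Of these 15, 11 were among the 17 list members on chromosomes 6 and 11, and the other 4 were 6.67% of the 60 elsewhere, near that 7.25%. Mrpl23 rose in WT cells, with a log2 fold change of 1.07 (adjusted p = 0.000940, limma). Of 12 other genes with a TOP motif, mostly translation factors, 1 fell in WT cells, Eif4b, with a log2 fold change of -0.57 (adjusted p = 0.00356, limma), and 1 was lower in Pcgf5-/- cells on day 6, Hnrnpa1, with -0.55 (adjusted p = 0.0394, limma). Of 14 genes of growth control around mTOR, 3 rose and 2 fell in WT cells, with a median of 0.18. These were 21.4% and 14.3% of the list, against 34.2% and 16.2% of all genes tested. On day 6, 3 (21.4%) were higher and 0 lower in Pcgf5-/- cells, with a median of 0.15. Limma called 9.57% of all genes tested higher there and 7.05% lower. Those that rose were Mtor itself, with a log2 fold change of 0.52 (adjusted p = 0.0386, limma), and the S6 kinase genes Rps6kb1, with 0.60 (adjusted p = 0.00730, limma), and Rps6kb2, with 0.79 (adjusted p = 0.0402, limma). Larp4 fell, with -0.73 (adjusted p = 0.0340, limma), and Eif4ebp1, a translation repressor that mTOR inactivates, fell from 281 ± 26.4 to 98.5 ± 4.19 FPKM in WT cells (SD, n = 2 each), with a log2 fold change of -1.50 (adjusted p = 4.47e-05, limma). Larp1, which binds TOP transcripts, was higher in Pcgf5-/- cells on day 6, with a log2 fold change of 0.75 (adjusted p = 0.0149, limma), as were Rps6kb1, with 0.61 (adjusted p = 0.0234, limma), and Eif4ebp1, with 0.47 (adjusted p = 0.0341, limma). Larp1 and Rps6kb1 lie on chromosome 11. For scale, the 627 other genes with a mean above 100 FPKM had a median log2 fold change of -0.17 from day 0 to day 6 in WT cells and of 0.14 between the genotypes on day 6, beside the -0.28 and 0.16 of the ribosomal protein genes.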

How the data were processed

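RNA from 8 samples was sequenced as polyA-selected paired-end libraries. The authors trimmed reads, removed reads identical to another, aligned with TopHat2 (version 2.0.4 per the submitters' processing notes) to mouse build mm9 and computed FPKM with Cufflinks (version 2.1.1), and they deposited per gene an FPKM and the bounds of its interval. Here the log2 of FPKM plus a pseudocount of 1 was taken, for the 13214 genes whose mean exceeded 1 FPKM in at least 1 condition. All 8 samples entered 1 fit of limma 3.58.1 (R 4.3.3) with a mean per condition, a variance trend and no replicate block, with Benjamini-Hochberg adjustment and a threshold of 0.05. Groups and replicate numbers came from the labels. The fit was tested on simulated data, with changes set in a small part of the genes between Pcgf5-/- and WT on day 6. It called 1.21% of the changes of 0.5 on the log2 scale, 45.9% of those of 1.0 and 87.6% of those of 2.0. Of its calls, 4.94% were false. Most changes of 0.5 thus went uncalled there, so a gene without a call can still have changed. Locus starts in the files count from 0 and are given here from 1. Named genes were those with known roles or paralogs, up to 8 called genes per direction and comparison, the 5 highest and 5 lowest by mean FPKM and up to 4 called genes per direction of each other list. The family, lists, named genes and chromosomes 6 and 11 were chosen with earlier results of these data known. The alternatives were another pseudocount, other filters, 3 other scalings, replicate blocks, no variance trend, only the compared samples and each sample left out. The middle of the deposited interval in place of the FPKM and leaving out genes with a shared locus were added after seeing the data. Raw counts were not used here, and the number of fragments behind a value is unknown. A few genes of the lists enter the counts but are not reported here by name.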

Additional observations from a re-analysis of the deposited data

Results flagged for a closer look

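The genotype effect of Rps4l on day 6 minus that on day 0 was 1.14 on the log2 scale, and limma's interaction term passed the threshold (adjusted p = 0.0435). That call was kept in only 6 of 18 other settings of the fit.

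In another 8 of the genes reported here both Pcgf5-/- samples lay on one side of both WT samples on day 0 and on the other side on day 6. The log2 fold changes on day 0 and day 6 were -0.83 and 1.13 for Rpl10l, -1.27 and 0.84 for Rpl39l, -0.088 and 0.59 for Rpl3l, and -0.12 and 0.24 for Rpl21. They were -0.12 and 0.23 for Rpl4, -0.16 and 0.24 for Rps18, -0.17 and 0.19 for Rps24, and -0.072 and 0.21 for Rps6. Limma's interaction term for these 8 genes gave adjusted p from 0.0545 (Rpl10l) to 0.377 (Rps6), so none passed the threshold.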

How the results depend on the processing

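Scaling and filter set most of the counts. WT day 6 against day 0 had 11 genes lower and 0 higher, with a median of -0.28. It had 7 lower with no filter on low FPKM, 79 with the median of other genes set equal (median -0.65), 17 with only the compared samples, and 1 higher under quantile normalization (median -0.037). Pcgf5-/- day 6 against day 0 had 4 lower with a median of -0.06, but 2 with no filter and 10 with equal medians (median -0.24). Pcgf5-/- against WT on day 0 had a median of -0.24 with equal medians. On day 6 the 5 genes higher became 1 with no filter, 3 under quantile normalization (median -0.011), 2 with no variance trend, 2 with only the compared samples and 1 without the genes of chromosomes 6 and 11. The 1 interaction call became 0 with no filter, 0 when rescaled, 0 with no variance trend and 0 without chromosomes 6 and 11. There were 2 calls with equal medians (median 0.42) or with the middle of the deposited interval. Under quantile normalization the median was 0.051, and the 1 call was Rpl10l rather than Rps4l. The cause of these moves was not tested.

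The replicate numbers were not taken as pairs in the main fit. The replicate differences of WT day 6 and Pcgf5-/- day 6 had a correlation of 0.39 over genes, so the main fit may leave out a pairing on day 6. For the other pairs of conditions the correlations ran from -0.08 to 0.10. With the replicate block there were 13 genes lower in WT, 4 higher in Pcgf5-/- cells on day 6 and 0 interaction calls, and with a block for each day 3 genes were higher on day 6 and 3 had an interaction call.

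With 1 sample left out, where a lone sample is assumed to vary like the others, WT day 6 had 5 to 27 genes lower (median -0.39 to -0.20), with 6, 7 and 5 without WT day 0 replicate 2, WT day 6 replicate 1 and WT day 6 replicate 2, and 26 and 27 without Pcgf5-/- day 6 replicate 1 and replicate 2. Pcgf5-/- day 6 had 2 to 5 lower (median -0.23 to 0.088), with 2 without replicate 1 of Pcgf5-/- day 0 or of Pcgf5-/- day 6. Pcgf5-/- against WT had medians of -0.19 to 0.00 on day 0, and 1 to 3 genes higher on day 6 (median 0.015 to 0.32). The interaction had medians of 0.071 to 0.38. No gene called in the main comparisons reversed its direction under any setting, and the calls of Rpl10l, Rpl39l, Rpl3l and Rpl7l1 in WT and of Rps4l in WT and on day 6 were kept in every setting that tested them. Leaving loci under 300 bp out of the total moved the family's share of the summed FPKM by less than 1 SD in each condition.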
